A study of Mus musculus with 14 samples.

Results

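The respiratory chain of the inner mitochondrial membrane was examined through 32 nuclear genes in germinal centre B cells of 14 mice. The genes were taken from a list of subunits, 16 of complex I, 4 of complex II, 5 of complex III, 6 of complex IV and the electron carrier cytochrome c, and each was read from its brightest single-gene probe set over the 14 arrays. All 32 were among the 10225 genes that passed the filter on low values, out of 18193 genes with a named probe set. Ndufa4 carries the name of a complex I gene but its protein is known as a subunit of cytochrome c oxidase, so it was counted with complex IV.

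The study asked what loss of Crebbp, the gene of a lysine acetyltransferase and transcriptional coactivator named for its binding to the factor CREB, does in these cells. Knockout mice (Crebbpfl/fl Cg1-Cre, called KO, 5 mice, 3 of them male) and heterozygous mice (Crebbpfl/+ Cg1-Cre, HET, 5 mice, 2 male) were set against wild-type mice (Crebbp+/+ Cg1-Cre, WT, 4 mice, 1 male). Every mouse, controls included, carried the Cg1-Cre allele, which deletes floxed DNA in B cells once they are activated, so cells that did not activate it keep Crebbp. The mice were of mixed C57BL/6x129Sv background, 8 to 12 weeks old, given sheep red blood cells as immunogen on day 0 and again on day 5, with cells taken on day 12. B220+CD95+PNA+ cells were sorted from the spleen of each mouse, and RNA of each mouse was put on 1 Affymetrix expression array. Values below are log2 intensities as deposited, and a change is a difference of log2 intensities from a limma fit with sex as a term, first-named genotype minus the other. The intensities of different probe sets have no common scale, so levels were not compared between genes.

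The respiratory chain passes electrons from NADH (through complex I) and from succinate (through complex II) to ubiquinone, then through complex III and cytochrome c to complex IV, which reduces oxygen. Complexes I, III and IV pump protons as they do so, and ATP synthase uses the gradient to make ATP. Germinal centre B cells divide fast and have been reported to rely strongly on oxidative metabolism. Most subunits are encoded in the nucleus and made in the cytosol, and the factors NRF-1, GABP, YY1 and CREB are known to act at many of their promoters.

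Because the protein of Crebbp is a partner of CREB, the promoters of the members were searched for the full cyclic AMP response element, the palindrome TGACGTCA to which CREB binds, in the 250 bases before and 50 bases after a start site of each gene (RefSeq, GRCm38.p6, both strands). The table of promoters held 26 windows for 25 of the 32 members. The element was found in 3 members, Cycs, Ndufa10 and Uqcrfs1, or 11.5% of member windows, against 1.79% of all 32851 windows and 3.26% of the windows of tested genes. The 3 promoters follow with the element in capitals. The promoter of Ndufs4, the member with the largest estimated change in KO, comes after them with its match to the core AAGATGGC of the YY1 motif in capitals. All 4 genes lie on the minus strand, and the sequences run 5′ to 3′ along it.
Cycs, chr6:50566520-50566819: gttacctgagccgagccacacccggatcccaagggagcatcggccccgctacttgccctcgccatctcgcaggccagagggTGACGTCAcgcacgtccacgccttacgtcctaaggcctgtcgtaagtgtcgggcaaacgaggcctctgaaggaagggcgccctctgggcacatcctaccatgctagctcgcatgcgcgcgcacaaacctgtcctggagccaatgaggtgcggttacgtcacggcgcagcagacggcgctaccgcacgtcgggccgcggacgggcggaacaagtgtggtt
Ndufa10, chr1:92473709-92474008: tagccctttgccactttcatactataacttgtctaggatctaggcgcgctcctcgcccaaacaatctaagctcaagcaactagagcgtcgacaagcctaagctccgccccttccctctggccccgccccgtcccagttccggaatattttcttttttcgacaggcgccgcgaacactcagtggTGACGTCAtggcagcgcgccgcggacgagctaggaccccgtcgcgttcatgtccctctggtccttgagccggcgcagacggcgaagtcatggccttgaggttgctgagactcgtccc
Uqcrfs1, chr13:30545267-30545566: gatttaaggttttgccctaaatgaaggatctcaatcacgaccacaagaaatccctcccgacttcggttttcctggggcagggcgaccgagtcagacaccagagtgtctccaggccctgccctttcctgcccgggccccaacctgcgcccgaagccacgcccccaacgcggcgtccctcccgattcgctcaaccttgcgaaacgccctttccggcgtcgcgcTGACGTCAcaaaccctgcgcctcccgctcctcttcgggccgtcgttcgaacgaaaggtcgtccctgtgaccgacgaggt
Ndufs4, chr13:114388045-114388344: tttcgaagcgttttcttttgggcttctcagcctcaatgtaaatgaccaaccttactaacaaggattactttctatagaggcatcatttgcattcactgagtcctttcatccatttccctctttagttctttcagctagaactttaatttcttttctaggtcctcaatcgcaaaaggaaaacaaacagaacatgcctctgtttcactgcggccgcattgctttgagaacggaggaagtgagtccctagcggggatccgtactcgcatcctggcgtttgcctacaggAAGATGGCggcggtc
Counting the start site of each window as 0, the response element began at -169 in Cycs, at -67 in Ndufa10 and at -29 in Uqcrfs1, and the YY1 match began at 35 in Ndufs4. That start site was the first base of the annotated gene for Cycs, Uqcrfs1 and Ndufs4, and lay 67 bases inside it for Ndufa10, whose element thus began at the first base of the gene. The YY1 core was found in 4 members (Ndufa9, Ndufb8, Ndufs4 and Ndufs7), 15.4% of member windows against 2.75% of all windows and 4.88% of those of tested genes. The NRF-1 motif (GCGCA and GCGC around any single base) was found in 6 members (Cox6a1, Ndufa5, Ndufa8, Sdha, Sdhd and Uqcrc1), 26.9% of member windows against 4.6% of all windows and 10.9% of those of tested genes. The GABP motif CCGGAAG was found in 5 members (Cox6a1, Ndufs3, Ndufs8, Sdhb and Sdhd), 19.2% of member windows, against 8.86% of all windows and 19.2% of those of tested genes. Matches of different motifs did not overlap in the member windows (0 overlaps). A match describes these letters only, and binding was not measured.

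The labels were checked first on Crebbp itself. Its probe set with the largest change read 9.29 to 9.56 in KO, 9.81 to 10.20 in HET and 10.19 to 10.36 in WT, so KO lay below both other genotypes on every array. On the brightest probe set KO (11.71 to 12.18) lay below WT (12.36 to 12.44) but overlapped HET (12.10 to 12.43). In limma fits over 18884 probe sets the 4 Crebbp probe sets changed by -0.86, -0.47, -0.41 and -0.30 in KO against WT, and only the first 2 passed (adjusted p = 0.000594 and 0.0407, against 0.0591 and 0.416). In HET against WT the same probe sets changed by -0.34, -0.12, -0.16 and -0.18 and none passed, so the check was weaker for the HET label. Which probe sets lie in the floxed part was not determined. The sorted cells had germinal centre transcripts on all arrays (Bcl6 12.92 to 13.08, S1pr2 12.27 to 12.47, Fas 11.86 to 12.43). In KO against WT, 1 of 5 tested germinal centre markers was called, Rgs13, which fell by 0.62 ± 0.12 (SE, limma adjusted p = 0.018). Of 4 tested plasma cell markers 1 was called, Sdc1, which rose by 0.81 ± 0.19 (SE, limma adjusted p = 0.0404), while the estimates of Prdm1, Xbp1 and Jchain lay below 0, at -0.28, -0.15 and -0.06. The part of such shifts in the values of the members was not tested. KO 3 stood furthest from the others, with a median correlation to the other arrays of 0.979, against 0.984 to 0.990 for the rest.

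In KO against WT none of the 32 members passed an adjusted p of 0.05 in limma. The same fit called 249 genes, 2.44% of all tested. At an unadjusted p under 0.05 stood 1 member, Ndufs4, or 3.12% against 13.1% of all tested genes. Ndufs4 stayed under that p in 8 of 14 fits with 1 array left out (not without KO 1, KO 2, KO 3, HET 1, WT 3 or WT 4) and in 6 of 12 other settings. Other members reached it under single settings, Ndufb3 with limma's trend and robust options, Sdhb with no sex term or without HET 4, and Ndufa9 without KO 4. The estimated changes were small, from -0.15 (Sdhb) to 0.19 (Ndufs4), with a median of 0.03, against a median of 0.00 over all tested genes. Their median size without sign was 0.05 log2 units, against 0.08 for all tested genes and 0.07 for the 6488 tested genes above the 75th percentile of intensity. That percentile is 9.09, while the means of the members ran from 10.28 (Sdhc) to 13.80 (Cox5b), so neither set was matched to them in intensity. The 95% intervals were computed for the brightest probe sets alone and were not adjusted for the number of genes. Those of dimmer probe sets were not computed. Of the intervals of the brightest probe sets 27 of 32 lay within 0.3 log2 units on either side of 0. Over all members they reached from -0.41 (Cox5a) to 0.42 (Uqcrq), or 0.75-fold to 1.34-fold. Differences within these intervals were not resolved with this number of arrays. In such bulk samples, fewer cells of a type and less RNA per cell cannot be told apart.

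Of the 32 estimates 23 lay above 0 and 9 below in KO against WT, or 71.9% above 0 against 49.0% of all tested genes and 49.3% of the brighter ones. This tilt moved with single arrays. Leaving out KO 3 put 17 of 32 above 0, leaving out WT 3 put 20 above, and leaving out both put 14 above, with medians of 0.00, 0.02 and -0.01 (the last combination was chosen after the data were seen). By complex, the estimates lay above 0 for 12 of 16 members of complex I, 2 of 4 of complex II, all 5 of complex III, cytochrome c, and 3 of 6 of complex IV. Without KO 3 and WT 3 these counts were 8 of 16, 2 of 4, 1 of 5, 1 of 1 and 2 of 6.

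**Figure D1:**
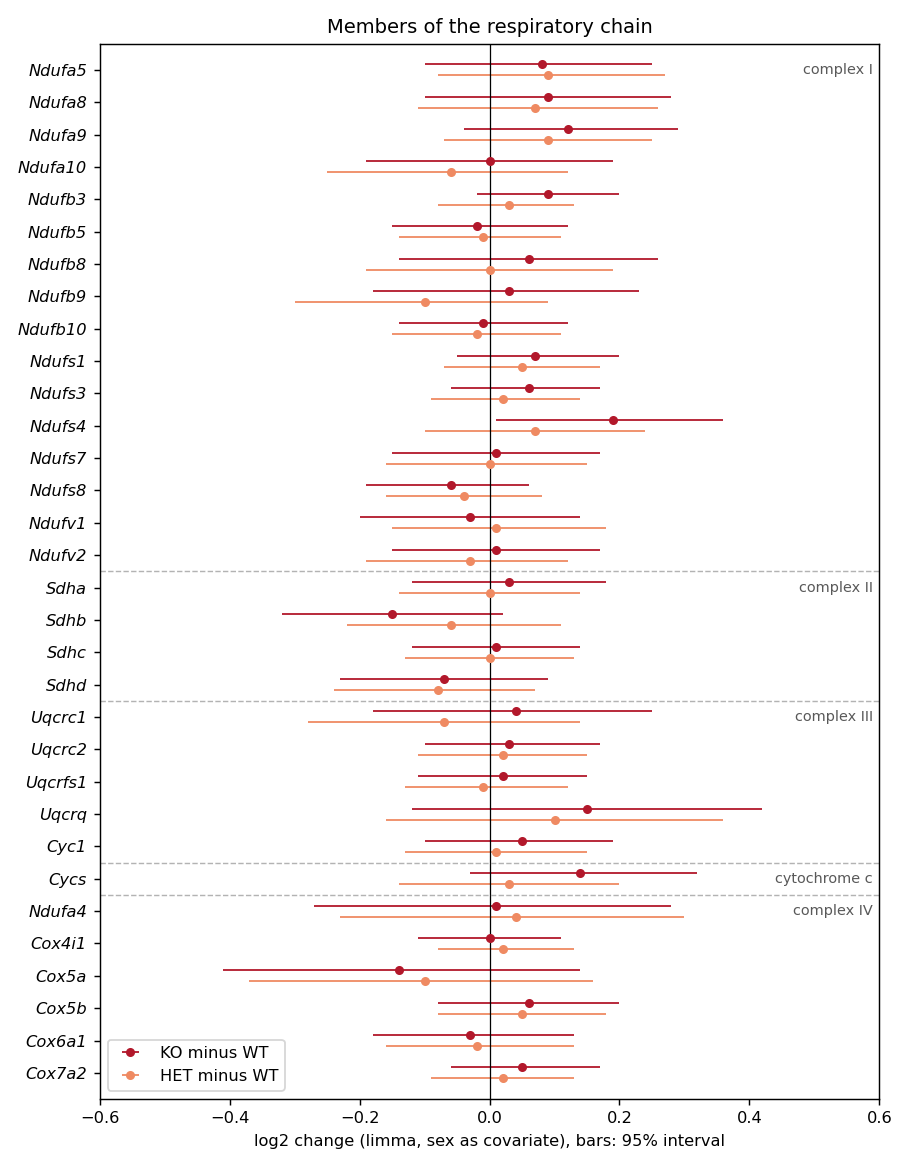
Estimated log2 changes of the 32 members in KO minus WT (dark red) and HET minus WT (orange), with 95% intervals from limma, genes from complex I at the top to complex IV at the bottom. The KO points lie between -0.15 and 0.19, and the interval of Ndufs4 in KO against WT, 0.01 to 0.36, is the only one that does not reach 0.

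Complex I, the entry point for NADH, had a mean over its 16 members of 12.17 ± 0.06 in KO, 12.14 ± 0.04 in HET and 12.13 ± 0.03 in WT (SD, n = 5, 5 and 4). Ndufs4, an accessory subunit of the NADH-oxidising arm whose loss gives mice a disease like Leigh syndrome, read 11.92, 11.85, 12.01, 11.75 and 11.71 in KO 1 to 5, 11.67, 11.68, 11.84, 11.71 and 11.81 in HET 1 to 5, and 11.81, 11.74, 11.51 and 11.67 in WT 1 to 4. KO 1, 2 and 3 lay above all WT arrays, KO 4 and 5 lay among them, and WT 3 was lowest of all. The change in KO against WT was 0.19 ± 0.08 (SE, 95% interval 0.01 to 0.36, 13.8% more intensity, limma unadjusted p = 0.0386, adjusted p = 0.336). Without KO 3 it was 0.14, without WT 3 0.13, and without both 0.09. Its gene lies at chr13:114287795-114388094 (GRCm38.p6), and its other probe sets above the filter, read one by one, changed by 0.14 and 0.03.

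Ndufb3, an accessory subunit of the membrane arm, varied least around its KO mean. It read 12.49, 12.51, 12.48, 12.49 and 12.49 in KO, 12.39, 12.40, 12.43, 12.43 and 12.48 in HET, and 12.45, 12.39, 12.31 and 12.45 in WT. All 5 KO arrays lay above all 4 WT arrays, by 0.09 ± 0.05 in the fit (SE, limma adjusted p = 0.53). On brightest probe sets Ndufb3 was the only member whose KO arrays all exceeded the WT arrays, and groups parted in that direction for 2.87% of all tested genes. Ndufb9, another membrane-arm subunit, ranged more widely: 11.56, 11.78, 11.85, 11.88 and 12.01 in KO, 11.69, 11.77, 11.80, 11.44 and 11.86 in HET, and 11.79, 11.85, 11.82 and 11.86 in WT. KO 1 and HET 4 were the low arrays and the WT arrays lay close together, with a change of 0.03 ± 0.09 in KO against WT (SE, limma adjusted p = 0.962).

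On brightest probe sets the core subunits of the arm that carries electrons stayed near 0 in KO against WT. Those of the NADH-oxidising module, Ndufv1, Ndufv2 and Ndufs1, had estimates of -0.03, 0.01 and 0.07. Those of the module that passes electrons to ubiquinone, Ndufs3, Ndufs7 and Ndufs8, had estimates of 0.06, 0.01 and -0.06. Other probe sets above the filter had 0.19 and 0.08 for Ndufv2, -0.01 and -0.12 for Ndufv1 and -0.06 for Ndufs7, with none passing. Ndufs8, which holds iron-sulphur clusters, had 6 probe sets above the filter, and the change was below 0 on all of them, between -0.06 and -0.12, with none passing. On its brightest probe set the groups overlapped, at 12.59 to 12.76 in KO, 12.59 to 12.79 in HET and 12.74 to 12.80 in WT. All KO arrays lay below all WT arrays on its dimmer probe sets with means of 12.08, 11.61 and 8.28. The closest KO and WT arrays there read 12.08 and 12.10, 11.65 and 11.67, and 8.30 and 8.32. The groups overlapped or met on the remaining probe sets of Ndufs8. Groups parted in that direction for 3.65% of all tested genes on brightest probe sets, and the share over all fitted probe sets was not computed. The probe sets of Ndufs8 read 1 gene on the same arrays, so they are not independent. Among the accessory subunits, Ndufa9, at the junction of the arms, had 0.12, Ndufa8 0.09, Ndufa5 0.08, Ndufb8 0.06, Ndufa10 0.00, Ndufb10 -0.01 and Ndufb5 -0.02. None of these reached an unadjusted p of 0.05, and their adjusted p ranged with those of the other members, 0.336 to 0.996.

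Complex II, or succinate dehydrogenase, also an enzyme of the citric acid cycle, had a mean over its 4 members of 11.45 ± 0.04 in KO, 11.47 ± 0.05 in HET and 11.50 ± 0.05 in WT (SD). Sdhb, its iron-sulphur subunit (chr4:140961271-140979198), read 11.71, 11.86, 12.00, 11.91 and 11.98 in KO, 12.09, 12.08, 12.00, 11.78 and 12.03 in HET, and 12.02, 12.02, 12.16 and 12.07 in WT. No KO array reached the level of any WT array. On brightest probe sets this held for no other member, and for 3.65% of all tested genes. The closest KO array was 12.00 and the closest WT array 12.02, and HET 4 fell among the KO arrays. The change was -0.15 ± 0.08 (SE, 95% interval -0.32 to 0.02, limma unadjusted p = 0.0854, adjusted p = 0.476), and -0.15 also without KO 3 and WT 3. The flavoprotein Sdha had an estimate of 0.03, and the membrane anchors Sdhc and Sdhd 0.01 and -0.07. The other probe sets above the filter had -0.10 for Sdhc and -0.08 for Sdhd. For Sdha they had 0.03 and, on a dim one with a mean of 7.16, 0.34 ± 0.19 (SE, limma adjusted p = 0.606 over probe sets). Averaging all probe sets of Sdha gave 0.16 (limma adjusted p = 0.518), so its estimate depended on the probe set.

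Complex III, which hands electrons to cytochrome c, had a mean over its 5 members of 11.77 ± 0.09 in KO, 11.73 ± 0.05 in HET and 11.72 ± 0.07 in WT (SD). Its small subunit Uqcrq read 11.65, 11.51, 11.72, 11.41 and 11.46 in KO, 11.54, 11.25, 11.48, 11.54 and 11.66 in HET, and 11.55, 11.54, 10.99 and 11.45 in WT. The groups overlapped, and WT 3 lay below every other array. The estimate of 0.15 ± 0.12 (SE, limma adjusted p = 0.721) was 0.03 without WT 3, and a dimmer probe set of the gene, with a mean of 7.06, had -0.25 (unadjusted p = 0.0299, limma adjusted p = 0.38 over probe sets). Uqcrc1, a core protein of the matrix side, read 11.16, 11.46, 11.59, 11.50 and 11.60 in KO, 11.43, 11.48, 11.44, 11.09 and 11.44 in HET, and 11.38, 11.47, 11.47 and 11.52 in WT. KO 1 and HET 4 lay below all other arrays, and the estimate in KO against WT was 0.04. The other core protein Uqcrc2, the Rieske iron-sulphur protein Uqcrfs1 and the heme-bearing Cyc1 had 0.03, 0.02 and 0.05.

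Cycs encodes cytochrome c, the carrier between complexes III and IV, which also triggers caspase activation when it leaves the mitochondria (chr6:50562563-50566569). It read 12.14, 12.21, 12.13, 12.19 and 12.25 in KO, 12.06, 11.94, 12.06, 12.05 and 12.16 in HET, and 12.06, 12.10, 11.75 and 12.16 in WT. KO 2, 4 and 5 lay above all WT arrays, KO 1 and 3 lay below WT 4, and WT 3 was lowest of all. The change was 0.14 ± 0.08 (SE, 95% interval -0.03 to 0.32, limma adjusted p = 0.516), and 0.07 without WT 3. The other probe sets of Cycs above the filter changed by 0.02 and 0.01, so the estimate was that of the brightest probe set alone. Averaging all 4 of its probe sets, 1 of them below the filter, turned the sign, to -0.01. The members with a cyclic AMP response element in the promoter had changes of 0.14 (Cycs), 0.00 (Ndufa10) and 0.02 (Uqcrfs1), and the 22 members whose windows lacked it ranged from -0.15 to 0.19 with a median of 0.02. The median change of members with and without a match was 0.09 and 0.01 for YY1 (4 and 21 members), -0.06 and 0.03 for GABP (5 and 20), and 0.03 and 0.01 for NRF-1 (6 and 19). The ranges overlapped for each motif, and these splits were not tested.

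**Figure D2:**
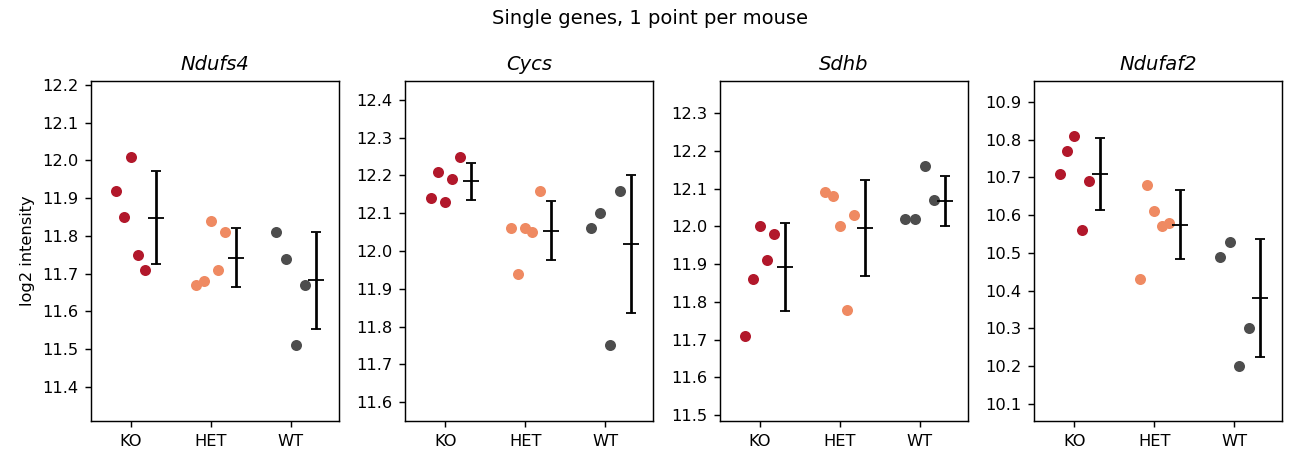
Log2 intensity of Ndufs4, Cycs, Sdhb and the assembly factor Ndufaf2 in each mouse, by genotype (KO, HET, WT), with the mean and SD of each group as bars, the axes not starting at 0. For Sdhb all KO points lie below all WT points, for Ndufaf2 all KO points (10.56 to 10.81) lie above all WT points (10.20 to 10.53), and for Ndufs4 and Cycs the groups overlap.

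Complex IV, or cytochrome c oxidase, had a mean over its 6 members of 13.10 ± 0.07 in KO, 13.11 ± 0.03 in HET and 13.11 ± 0.04 in WT (SD). Cox4i1, the common isoform of its largest nuclear subunit, was the steadiest member, at 12.90, 12.88, 12.90, 12.85 and 12.86 in KO, 12.93, 12.86, 12.91, 12.90 and 12.90 in HET, and 12.90, 12.93, 12.78 and 12.89 in WT. All 3 groups overlapped, and the change in KO against WT was 0.00 ± 0.05 (SE, 95% interval -0.11 to 0.11). Cox5a, a subunit on the matrix side, was among the least steady: 12.56, 12.84, 12.63, 13.12 and 13.16 in KO, 12.92, 12.98, 12.90, 12.67 and 13.10 in HET, and 12.94, 13.02, 13.09 and 13.05 in WT. KO 1, 2 and 3 lay below all WT arrays while KO 4 and 5 lay above them. The estimate of -0.14 ± 0.13 (SE, limma adjusted p = 0.767) was -0.03 without KO 3, and its other probe sets had -0.11 and -0.08.

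Ndufa4 read 11.88, 11.89, 11.33, 11.98 and 12.01 in KO, 11.75, 11.71, 11.73, 11.89 and 12.05 in HET, and 11.83, 11.82, 11.63 and 11.81 in WT. KO 3 was lowest of all arrays while the other 4 KO arrays lay above all WT arrays, and the change was 0.01 ± 0.13 (SE, limma adjusted p = 0.994). The zinc-binding Cox5b had 0.06, and its 5 probe sets above the filter all lay above 0 (0.06 to 0.15) with none passing. Cox7a2 and Cox6a1, isoforms used outside heart and skeletal muscle, had 0.05 and -0.03.

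The spread of most members within a genotype was small. The SD within groups had a median of 0.09 over the members, from 0.04 (Cox4i1) to 0.19 (Ndufa4), against 0.15 for all tested genes and 0.13 for the brighter ones. Neither set was matched to the members in intensity. The mean over all 32 members was 12.13, 12.18, 12.24, 12.18 and 12.22 in KO 1 to 5, 12.18, 12.18, 12.19, 12.10 and 12.20 in HET 1 to 5, and 12.17, 12.19, 12.12 and 12.20 in WT 1 to 4. The genotypes overlapped throughout, with means of 12.19 ± 0.04 in KO, 12.17 ± 0.04 in HET and 12.17 ± 0.04 in WT (SD). The highest and lowest arrays differed by 0.14 log2 units, 10.2%, and the KO and WT means by 0.02.

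**Figure D3:**
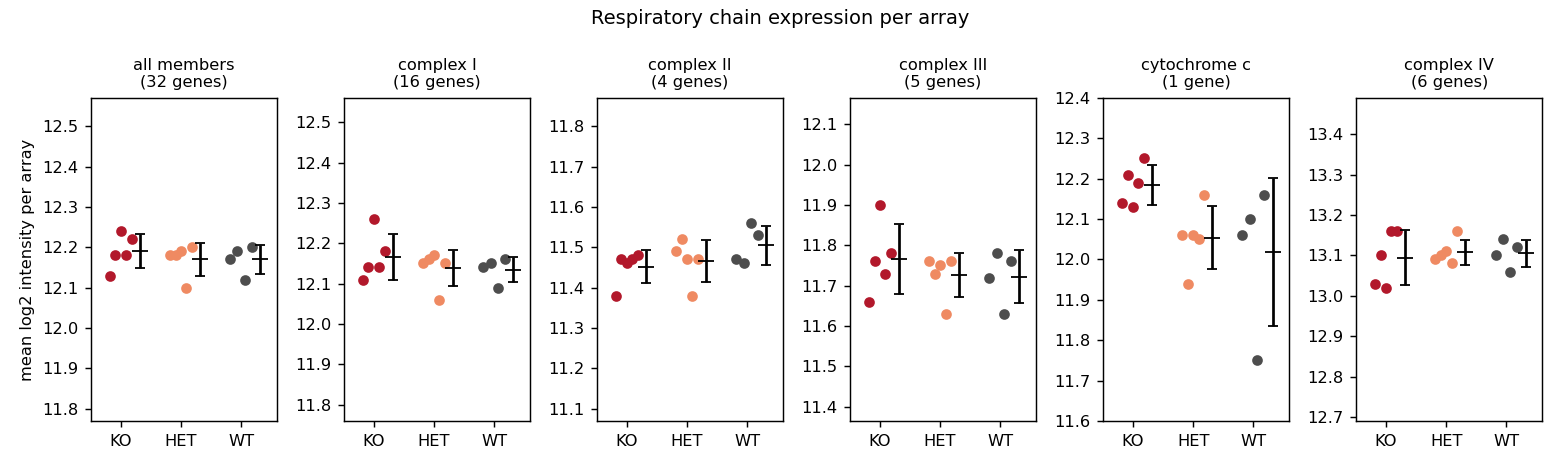
Mean log2 intensity per array over all 32 members and over the members of each complex, by genotype (KO, HET, WT), 1 point per mouse, with the group mean and SD as bars. The axes do not start at 0, and each spans about the same number of log2 units. The points of the 3 genotypes overlap for all members and for each complex.

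Single arrays departed from the rest over many members at once. KO 3 lay above the median of the 14 arrays for 25 members, 78.1% against 58.2% of all tested genes, and was highest for 13, but it was lowest for Sdhc, Sdhd and Ndufa4. HET 4 lay below the median for 25 members and above it for 7, 21.9% against 48.4% of all tested genes. It was lowest of all arrays for 8 members, from complex I (Ndufa10, Ndufb9, Ndufs8, Ndufv1), complex II (Sdha) and complex III (Uqcrc1, Uqcrfs1, Cyc1). WT 3 was lowest for 10 members, among them Ndufs4, Ndufb3, Uqcrq, Cycs, Cox4i1, Cox5b and Cox7a2, yet highest for Sdhb, Sdhd and Cox6a1. KO 1 was lowest for 5 (Ndufb10, Sdhb, Uqcrc2, Cox5a and Cox6a1). Over all tested genes the share for which an array was lowest was 8.78% for HET 4, 10.3% for WT 3 and 9.24% for KO 1, and the share for which KO 3 was highest was 23.1%. HET 4 also had the highest mean of 7 macrophage and monocyte markers (7.60, against 6.05 to 7.51 in the other HET arrays), of which Lyz2, Cd68 and C1qb passed the filter. KO arrays ranged from 6.43 to 7.57 and WT arrays from 6.24 to 7.12 for that mean. KO 5 (7.57) and HET 5 (7.51) lay near HET 4 on it. Their means over all members were 12.22 and 12.20, and that of HET 4 was 12.10. The other 4 markers, Csf1r, Adgre1, C1qa and Marco, were below the filter. The mean of 7 T cell markers, 3 above the filter, was 6.42 to 7.38 in KO, 6.48 to 7.11 in HET and 6.62 to 6.96 in WT, with KO 1 highest. The part of these in the pattern was not tested.

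**Figure D4:**
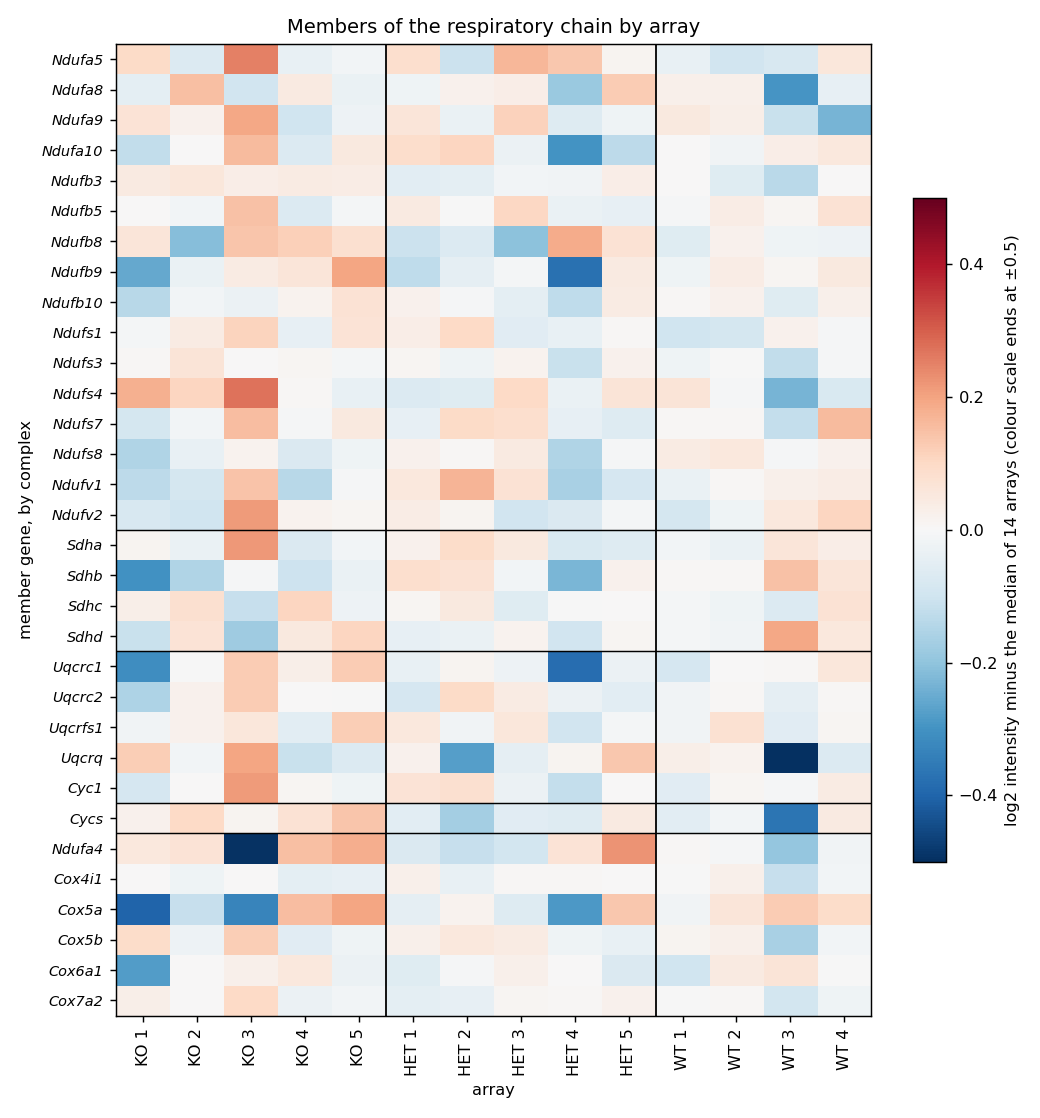
Log2 intensity of each member (rows, by complex) minus its median over the 14 arrays, for each array (columns, KO, HET, WT), in blue below and red above the median. KO 3 is red for most rows but blue for Ndufa4 and Cox5a, HET 4 is blue for most rows, and WT 3 is darkest blue for Uqcrq and Cycs.

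In HET against WT none of the members passed in limma, nor did any of all tested genes (0%), and no member reached an unadjusted p under 0.05, against 2.74% of all tested genes. The estimates ran from -0.10 (Ndufb9) to 0.10 (Uqcrq), with 18 above 0, 14 below and a median of 0.01, and 29 of 32 intervals lay within 0.3 log2 units on either side of 0. All 32 members overlapped between HET and WT, while 1.5% of all tested genes did not. Ndufs4 had 0.07 ± 0.08 in HET against WT, Sdhb -0.06 ± 0.08 and Cycs 0.03 ± 0.08 (SE). These share the WT arrays with the values for KO against WT, 0.19, -0.15 and 0.14, so the comparisons are not independent.

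In KO against HET the fit called 27 genes, 0.264% of all tested, and again no member, with none at an unadjusted p under 0.05 against 6.39% of all tested genes. The estimates ran from -0.09 (Sdhb) to 0.13 (Ndufb9), with a median of 0.02. Of them 23 lay above 0 and 9 below, or 71.9% above 0 against 47.3% of all tested genes. Leaving out KO 3 put 16 of 32 above 0 with a median of 0.00, and array weights put 14 above. No member parted KO from HET arrays, against 1.43% of all tested genes. Ndufs4 had 0.12 ± 0.07, Cycs 0.12 ± 0.07 and Ndufb9 0.13 ± 0.09 (SE).

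Males and females were compared with genotype as a term, since the genotypes held unequal numbers of each. None of the members passed and none reached an unadjusted p under 0.05, against 3 genes called, 0.0293%, and 6.38% at that p over all tested genes. The estimates for males against females ran from -0.12 (Ndufb9) to 0.11 (Ndufa4), with 10 above 0, 22 below and a median of -0.02. Those above 0 made up 31.2%, against 51.1% of all tested genes, and without HET 4 they were 16 of 32.

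The remaining parts of the machinery were read from lists of related genes. Over all tested genes 49.0% of estimates lay above 0 in KO against WT. The counts above 0 in these lists are from the main fit and were not recomputed without KO 3 and WT 3. Of the other complex I subunits 16 of 20 were tested, 13 with estimates above 0 in KO against WT and none called, the smallest p being that of Ndufv3 (0.20 ± 0.09, adjusted p = 0.366). All 4 other complex III subunits lay above 0 and none was called, led by Uqcr10 (0.20 ± 0.10, adjusted p = 0.452). The other complex IV subunits had 3 of 5 above 0 and none called, with Cox6c at -0.08 ± 0.05 (adjusted p = 0.607). ATP synthase, which uses the proton gradient, had 11 of 15 subunits above 0, a median of 0.04 and none called, with Atp5k at 0.13 ± 0.08 (adjusted p = 0.58). Of the subunits encoded in the mitochondrial genome only ND5, of complex I, was tested, at -0.03 ± 0.08 (adjusted p = 0.935). Cox6b2, an isoform known from testis, had 0.34 ± 0.11 (adjusted p = 0.126), the smallest p of 4 tested tissue-restricted isoforms of complex IV, none of them called.

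Among 39 tested assembly factors, which build the complexes but do not stay in them, 1 passed in KO against WT, or 2.56%, near the 2.44% called over all tested genes. Ndufaf2, an assembly factor of complex I (chr13:108052589-108158652), read 10.71, 10.77, 10.81, 10.56 and 10.69 in KO, 10.43, 10.68, 10.61, 10.57 and 10.58 in HET, and 10.49, 10.53, 10.20 and 10.30 in WT. All KO arrays lay above all WT arrays, and the HET arrays overlapped both. It rose by 0.35 ± 0.08 in KO against WT (SE, 95% interval 0.17 to 0.53, 27.3%, limma adjusted p = 0.046), close to the threshold. The call held without KO 4 or WT 2 (adjusted p = 0.0215 and 0.0483) and was lost when any of the other 12 arrays was left out, with changes of 0.29 to 0.38 and adjusted p between 0.056 and 0.149. It was also lost with the replicate number as a block (adjusted p = 0.0963). In HET against WT the estimate was 0.20 ± 0.08 (adjusted p = 1), and in KO against HET 0.14 ± 0.08 (adjusted p = 0.896). The median of the assembly factors was 0.05, with 28 of 39 above 0, against a median of 0.00 and 49.0% above 0 for all tested genes.

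Regulators of mitochondrial biogenesis had 6 of 12 estimates above 0 in KO against WT and none called. Nrf1, the gene of the factor NRF-1 had 0.18 ± 0.11 (adjusted p = 0.563). Of the enzymes of the citric acid cycle, which supply NADH and succinate, 3 of 12 lay above 0 and none was called, with Ogdh, a subunit of the oxoglutarate dehydrogenase complex, at -0.18 ± 0.08 (adjusted p = 0.365). Import and membrane proteins had 8 of 13 above 0 and none called, with Opa1, a GTPase that shapes the inner membrane, at 0.12 ± 0.06 (adjusted p = 0.44). In HET against WT and in KO against HET no gene of these lists passed. Proliferation genes had none of 9 called in KO against WT, with a median of 0.01.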

How the data were processed

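Expression was measured in sorted splenic germinal centre B cells of 14 mice, 1 array per mouse, with no replicate arrays of a mouse. Per the labels' protocols, 25 ng of total RNA was amplified and 3.75 ug of cDNA was labelled and hybridised to Affymetrix mouse arrays. The deposited values are log2 intensities for 45101 probe sets, made with RMA per the submitters' processing notes (its version is not given in the sources used here). RMA normalises by quantiles, which hides any shift shared by most genes. The number of arrays limits the precision.

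Of the probe sets, 64 are controls, 34945 name 1 gene in the platform annotation, 932 name several and 9160 other probe sets were unnamed here. Symbols were matched to RefSeq (GRCm38.p6), where 34741 matched and 0 changed. A gene was read from its brightest single-gene probe set and tested if its mean was above 6.43, the median over probe sets other than controls. limma 3.58.1 in R 4.3.3 (lmFit, eBayes) was fitted over the 10225 tested genes and all 14 arrays with genotype and sex as terms, with Benjamini-Hochberg adjustment over all tested genes and a threshold of 0.05. Groups and sex came from the labels. The fit was tested on simulated data. Single probe sets above the filter were also fitted, in 1 fit of 18884. Of the 72 probe sets of the members, the 32 brightest and 33 others were in it. Of the 33 other member probe sets above the filter 0 passed in KO against WT and 1 reached an unadjusted p under 0.05, and their changes ran from -0.25 to 0.34 with a median of 0.03. At most 58 probe sets had identical values in any 2 arrays.

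The members and the related lists were chosen with earlier results of these data known, and no p was computed over a list. All members were named. From each related list every gene called in a genotype comparison was named (up to 3 by smallest p), and otherwise the gene with the smallest p in KO against WT. The alternatives tried were the filter, the mean of all probe sets of a gene, repeated quantile normalisation, median centring, no sex term, females alone, only the groups compared, array weights, limma with trend and robust settings, the replicate number as a block, a threshold of 0.1, and leaving out each array.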

Additional observations from a re-analysis of the deposited data

Results flagged for a closer look

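Of 111 sets of 4 or 5 arrays checked, 12 held an array far from the rest of its genotype. Single members made up 96 of the sets and 8 of those 12, and the rest were means over members. The limit is passed by about 1 in 20 sets of independent, normally spread values. Members moved together on single arrays, and the share over all tested genes was not computed, so no excess was shown. HET 4 gave 5 of the 12. It had a low mean over all members (12.10, against 12.18 to 12.20 in the other HET arrays), over complex I (12.06, against 12.15 to 12.17) and over complex III (11.63, against 11.73 to 11.76). It was also low for Ndufs8 (12.59, against 12.74 to 12.79) and Uqcrc1 (11.09, against 11.43 to 11.48). These values overlap, since Ndufs8 and Uqcrc1 enter the means. KO 1 was low for the mean of complex II (11.38, against 11.46 to 11.48 in the other KO arrays) and for Cox6a1 (13.20, against 13.45 to 13.53). KO 2 was low for Ndufb8 (11.92, against 12.19 to 12.27) and high for Ndufs3 (12.76, against 12.69 to 12.71). KO 3 was low for Ndufa4 (11.33, against 11.88 to 12.01). WT 3 was low for Ndufa4 too (11.63, against 11.81 to 11.83 in the other WT arrays) and for Ndufs3 (12.57, against 12.68 to 12.69).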

How the results depend on the processing

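No member passed in any of the 4 comparisons under any alternative, including each fit with 1 array left out. The median change of the members in KO against WT was 0.026 and ran from 0.00434 to 0.0662 with 1 array left out (0.0662 without WT 4), and from -0.0121 (without KO 3 and WT 3, added after the data were seen) to 0.0569 (females alone) under the other settings. The number of members above 0 was 17 to 25 with 1 array left out and 14 to 26 otherwise. The count of all tested genes called moved far more. In KO against WT it was 249, and 117 with the filter at the 75th percentile, 79 in females alone, 98 with only these 2 groups, 424 at a threshold of 0.1, 132 without KO 3 and WT 3, and 130 to 259 with 1 array left out. In HET against WT it was 0, and 6 with array weights and 0 with any 1 array left out. In KO against HET it was 27, and 2 with no filter, 4 with the 75th percentile, 0 in females alone, 5 with only these 2 groups, 72 with array weights, 48 at 0.1, 17 without KO 3 and WT 3, and 0 to 25 with 1 array left out. In males against females it was 3, and 5 with no filter or with trend and robust, 1 with the 75th percentile, and 2 to 3 with 1 array left out. With the replicate number as a block, 1 gene was called in HET against WT and 16 in KO against HET. Same-numbered arrays correlated from -0.175 to 0.383 over 13 pairs, 9 of them over 0.1, against 13 of 52 differently numbered pairs (-0.369 to 0.582), and 8 of 14 arrays correlated best with an array of their own number. The effect of sex was not removed before these correlations, so they do not separate a shared number from a shared sex. Neither the labels nor every pair tied a number to a shared source, so the mice were not treated as paired. The call of Ndufaf2 held in 5 of 12 other settings and in 2 of 14 fits with 1 array left out, and was lost with no filter (adjusted p = 0.0871), repeated quantile normalisation (0.0523), females alone (0.378), only 2 groups (0.19), array weights (0.111), the block (0.0963) and without KO 3 and WT 3 (0.174). Fewer arrays or more genes enter some of these fits, and otherwise the cause was not tested. All 32 members passed the stricter filter on low values too.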
